A study of Mus musculus with 14 samples.

Results

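The 8 mouse genes described here, which serve metal buffering and zinc handling, were followed in the retinal pigment epithelium (RPE) of eyes that did or did not receive human Nrf2. They were taken as a named list: the metallothioneins Mt1, Mt2 and Mt3, the zinc-sensing transcription factor Mtf1, the zinc exporter Slc30a1, its relative Slc30a10, and the importers Slc39a10 and Slc39a14. All 8 were present among the 34453 rows of the count table, and 7 of them were among the 16289 genes with enough counts to be tested. Slc30a10 was not.

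The RPE is the pigmented epithelium behind the photoreceptors, and in rd1 mice (FVB/N strain, no functional Pde6b) the rods degenerate early in life. RNA was sequenced from the RPE of 7 rd1 mice at age P20. The retina was removed, the eyecup was put in RNA Protect, and RPE RNA was purified from the supernatant. In every mouse 1 eye had received AAV-Best1-GFP together with AAV-Best1-Nrf2 (the Nrf2 group, n = 7), and the other eye AAV-Best1-GFP alone (the control group, n = 7). GFP was therefore present in both groups, both transgenes were driven by a fragment of the human Best1 promoter, and an Nrf2 eye carried one vector more than its control, with another capsid. The eyes of a mouse were compared with each other to ask what Nrf2 added to the RPE changes under way in the degenerating eye.

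Metallothioneins are small cysteine-rich proteins that hold zinc and copper and can be oxidized in place of other proteins. Mt1 and Mt2 are made in most tissues and respond to metals through Mtf1, which binds metal response elements when free zinc rises, whereas Mt3 is best known from neurons and astrocytes. Transporters of the Slc30 family (ZnT) move zinc out of the cytosol and those of the Slc39 family (ZIP) move it in. The RPE is a zinc-rich tissue, in which zinc is bound to metallothionein and, in pigmented eyes, within melanosomes.

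Library totals ranged from 16548349 to 50543008 estimated counts, and values are given as CPM, counts scaled to the same total in every library. The transcript of the vector, human NFE2L2, lay between 1.12 and 1163 CPM in control libraries and between 1163 and 8711 CPM in Nrf2 libraries. By this transcript control 3 was the highest control library and Nrf2 4 the lowest Nrf2 library, both at 1163 CPM. Of all 91 pairs of libraries these were the most alike over the tested genes (root mean square difference of 0.508 in log2 CPM). Whether either library holds RNA of another eye was not tested, so group means, SDs and tests over 7 mice include a pair of libraries that lie between the groups, and results are also given without mice 3 and 4. Over all genes Nrf2 2 stood farthest from the other libraries, with differences of 1.47 to 1.82 from each of them. It had the lowest total and 2.55% of its counts on pseudogenes, against 1.06% to 1.17% in the other 13. RPE markers such as Rpe65 (134 to 2220 CPM) and Ttr (1183 to 14240 CPM) were detected in every library, although Rpe65 was lower in Nrf2 eyes (log2 fold change -2.17, edgeR adjusted p = 0.0198), and Best1 itself reached 0.302 to 3.84 CPM. In bulk RNA of this kind, fewer cells of a type and less RNA per cell cannot be told apart.

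Mt3 was the member that rose. Its level in control libraries 1 to 7 was 96.9, 117, 209, 167, 75.3, 101 and 129 CPM. In Nrf2 libraries 1 to 7 it was 1199, 430, 854, 165, 513, 573 and 1059 CPM. The groups overlapped only through Nrf2 4, which was the lowest of the Nrf2 libraries and lay below control 3 and control 4, and the other 6 lay above all control libraries. The mean was 128 ± 46.0 CPM (SD, n = 7) in control and 685 ± 368 CPM (SD, n = 7) in Nrf2 eyes, a ratio of 5.35. In the paired fit the log2 fold change was 2.42 (SE 0.42, 95% interval 1.47 to 3.38, adjusted p = 0.0214 by edgeR's quasi-likelihood test). The paired difference in normalized log2 CPM ran from 0.15 in mouse 4 to 3.98 in mouse 1 and was above 0 in all 7 mice. Its exact two-sided sign-flip permutation test gave p = 0.0156, the smallest that 7 pairs allow, with 7 members tested this way and no adjustment. On plain CPM without that normalization, Mt3 was higher in 6 of 7 mice.

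Without mice 3 and 4 the Mt3 groups were fully apart, at 75.3 to 129 CPM in control and 430 to 1199 CPM in Nrf2 eyes. This subset leaves out Nrf2 4, control 3 and control 4, the libraries through which the groups had overlapped. The share of all genes with groups apart over these 5 mice was not counted. The log2 fold change over these 5 mice was 2.87 (SE 0.32, edgeR adjusted p = 0.00721), where 4.59% of 16563 genes passed the threshold. The call over all mice depended on which mice were included. Leaving out mouse 1, 3, 5, 6 or 7 alone brought the adjusted p to between 0.0585 and 0.0874, with a log2 fold change of 2.16 to 2.46, while it was 0.0482 without mouse 2 and 0.00133 without mouse 4.

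Of the 7 tested members, 1 passed an adjusted p of 0.05, against 3.43% of the 16289 genes tested (2.94% when only genes higher in Nrf2 eyes are counted). None of the 7 had groups that did not overlap in CPM over the 7 mice, which held for 1.79% of tested genes. Without mice 3 and 4 the other members had log2 fold changes of 0.63 (Slc30a1), 0.54 (Mt1), 0.38 (Slc39a14), 0.22 (Slc39a10), 0.15 (Mt2) and 0.06 (Mtf1), with edgeR adjusted p from 0.117 to 0.857. Over all 7 mice the median log2 fold change was 0.30 over the tested members and -0.04 over all tested genes. All 7 fitted values were above 0, as were those of 7361 of 16289 genes, but those of Mt2, Mtf1 and Slc39a10 changed sign when single mice were left out or another model was used.

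**Figure D1:**
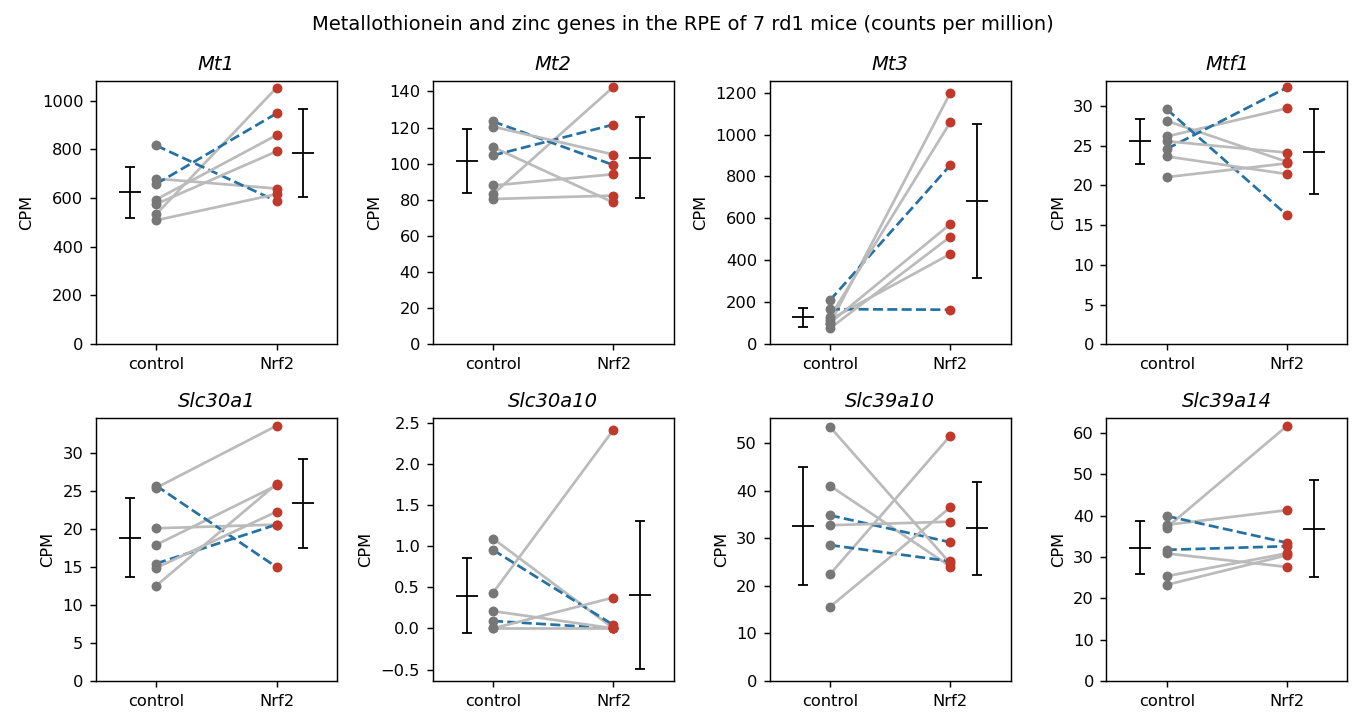
Level of each member in CPM (linear axes, each with its own range) in the control and Nrf2 eye of 7 mice. Lines join the eyes of a mouse, dashed blue lines are mice 3 and 4, and black marks are the group mean ± SD. Mt3 rose from 75.3 to 209 CPM in control to as much as 1199 CPM in Nrf2 eyes, while the groups of the other members overlapped broadly.

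By CPM, Mt1 was the most abundant metallothionein in every control library and by group mean in Nrf2 eyes. In Nrf2 1 and Nrf2 7 it was below Mt3 (1053 against 1199 CPM and 858 against 1059 CPM). Mt1 lay between 509 and 816 CPM in control libraries (median 594) and between 587 and 1053 CPM in Nrf2 libraries (median 791). The Nrf2 libraries 1, 3 and 7 were above every control library, while the other 4 lay within the control range. The means were 623 ± 105 and 785 ± 179 CPM (SD, n = 7 each). The log2 fold change was 0.45 (SE 0.20, 95% interval -0.01 to 0.91, edgeR adjusted p = 0.288), and 5 of 7 mice were higher in the Nrf2 eye (exact sign-flip permutation p = 0.0938). By edgeR the unadjusted p was 0.0557. Neither test gave a p under 0.05, and the interval holds values from -0.01 to 0.91.

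Mt2, which is induced together with Mt1 by metals and glucocorticoids, lay between 80.4 and 123 CPM in control and between 78.5 and 143 CPM in Nrf2 libraries, with medians of 105 and 99.3 CPM. The ranges coincided almost entirely. The log2 fold change was 0.15 (SE 0.18, 95% interval -0.27 to 0.57, edgeR adjusted p = 0.709; exact sign-flip permutation p = 0.547). Of the 573 31-base words of Mt2 transcripts, 58.1% also occurred in other genes. Nearly all of these, 330 of 333, were shared with its antisense partner, Gm45774, which has no row in the table. The amplification kit does not keep strand, so reads of this pair cannot be told apart. Mt1 and Mt3 shared none of their 31-base words with transcripts of another gene.

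**Figure D2:**
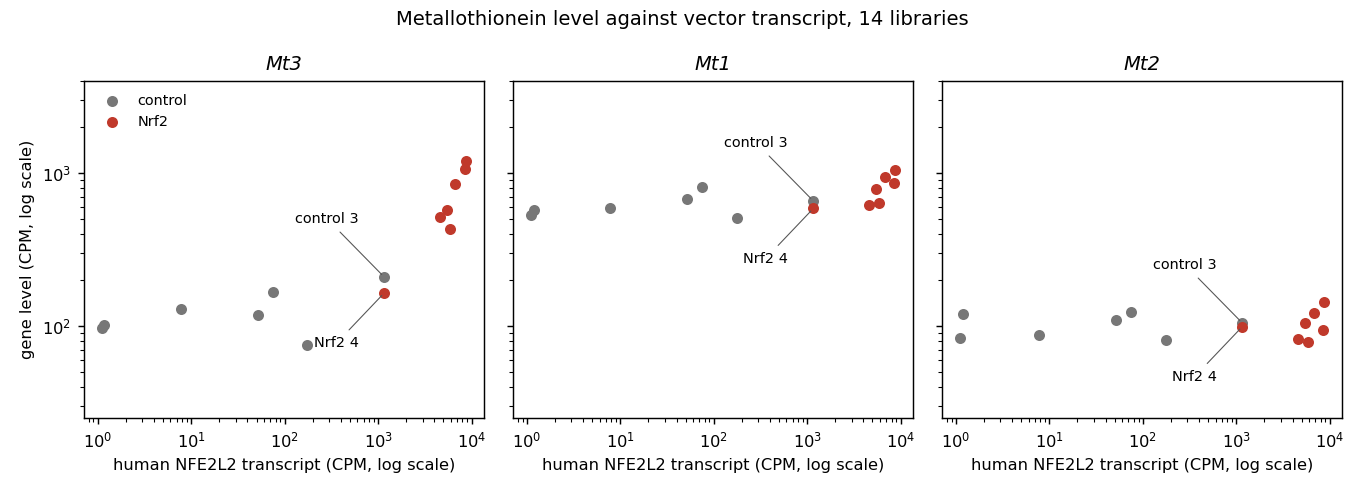
Levels of Mt3, Mt1 and Mt2 (CPM, log scale) against the vector's human NFE2L2 transcript (CPM, log scale) in 7 control (grey) and 7 Nrf2 (red) libraries. The 6 Nrf2 libraries with the most vector transcript held 430 to 1199 CPM of Mt3, and control 3 and Nrf2 4, with equal vector transcript, held 209 and 165 CPM.

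The 3 genes lie next to each other on chromosome 8 and are all transcribed from the plus strand (GRCm38). Mt3 occupies chr8:94152607-94154146, Mt2 chr8:94172664-94173568 and Mt1 chr8:94179082-94180327, and the main transcript of each has 3 exons. Mt2 begins 20057 bp and Mt1 26475 bp after the start of Mt3. The fourth gene of the cluster, Mt4, a metallothionein of stratified epithelia, begins 15410 bp before Mt3 and was at most 0.0482 CPM in any library. Among tested genes nearby, Nudt21, Ogfod1, Bbs2 and Nup93 had log2 fold changes between -0.46 and 0.04, none of these 4 past the threshold (lowest adjusted p = 0.200 by edgeR, for Ogfod1).

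The sequences before the start sites of the 3 genes are shown because Mt3 passed the test and its neighbours in the cluster did not. Each is the 250 bases before the RefSeq start on the gene's strand (GRCm38.p6), and capitals mark matches, on either strand, to the core of a metal response element (MRE; TGCACNC or TGCGCNC) or of an antioxidant response element (ARE; TGACNNNGC), the site bound by Nrf2.
Mt3, chr8:94152357-94152606: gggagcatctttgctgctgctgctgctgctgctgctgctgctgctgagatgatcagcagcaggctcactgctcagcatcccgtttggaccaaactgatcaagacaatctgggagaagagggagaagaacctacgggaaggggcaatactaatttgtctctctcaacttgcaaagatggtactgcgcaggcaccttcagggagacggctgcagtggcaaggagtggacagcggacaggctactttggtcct
Mt2, chr8:94172368-94172617: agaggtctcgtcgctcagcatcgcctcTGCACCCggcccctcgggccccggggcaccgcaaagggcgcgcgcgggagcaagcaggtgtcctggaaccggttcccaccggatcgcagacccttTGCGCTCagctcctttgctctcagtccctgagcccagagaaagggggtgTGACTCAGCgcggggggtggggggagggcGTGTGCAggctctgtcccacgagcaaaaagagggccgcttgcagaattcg
Mt1, chr8:94178839-94179088: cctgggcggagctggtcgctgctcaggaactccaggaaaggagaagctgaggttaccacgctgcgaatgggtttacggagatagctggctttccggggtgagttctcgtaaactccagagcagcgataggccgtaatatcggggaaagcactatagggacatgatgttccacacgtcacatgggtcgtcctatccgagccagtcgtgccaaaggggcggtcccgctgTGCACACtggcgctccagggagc
Mt2 held 3 MRE matches and 1 ARE match, which do not overlap. Mt1 held 1 MRE match, and Mt3 held neither motif. Among all 32851 such windows, 21.4% held at least 1 MRE match, 1.26% at least 3, and 10.2% at least 1 ARE match. These windows depend on the start chosen. GENCODE gives transcripts that begin downstream of the windows shown, at 94179211 and 94179241 for Mt1, 94172860 for Mt2 and 94152746 for Mt3, and the sequence before those starts was not searched. The main GENCODE transcript of Mt2 also begins downstream, at 94172664, so the Mt2 window does not end at that start. The counts of matches are those of the windows and not of the whole promoters. A match is a run of letters and not a bound site.

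Windows were found for 7 of the 8 members. Slc30a1 held 1 MRE match and 1 ARE match, Slc30a10 held 3 MRE matches of which 2 overlap on opposite strands, and Mtf1 and both windows of Slc39a10 held none. Genes with and without MRE matches were both among those not past the threshold, and a relation of matches to change was not tested.

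**Figure D3:**
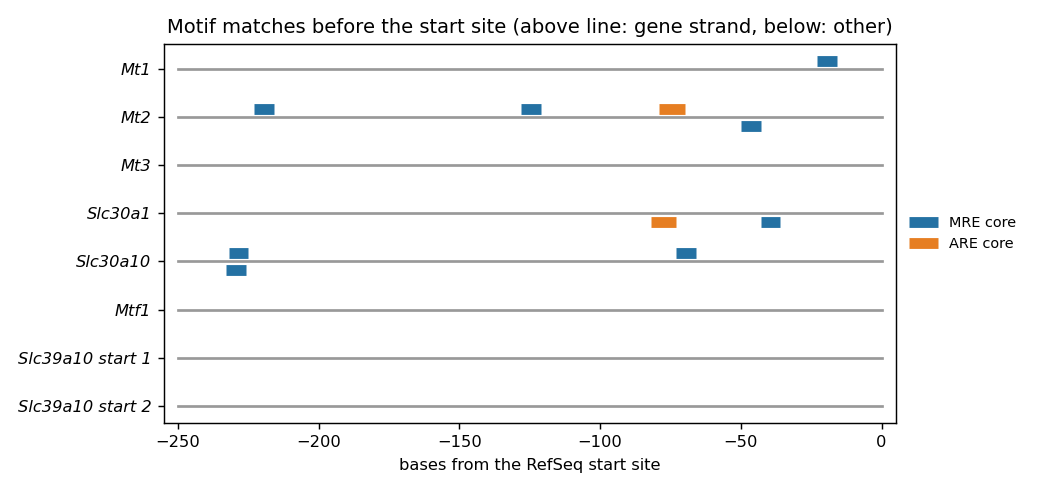
Position of MRE core (blue) and ARE core (orange) matches in the 250 bases before the RefSeq start of 7 members, with distance from the start on the horizontal axis. Marks above a line are on the gene's strand and marks below it on the other strand. Mt3, Mtf1 and both Slc39a10 windows are empty.

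Levels of different genes were compared per length of the best-supported coding transcript, as CPM per kb of transcript. On this scale the level of Mt1 was 1135 ± 191 in control and 1429 ± 326 in Nrf2 eyes (SD, n = 7 each). Mt3 had a level of 239 ± 85.8 in control eyes, close to the 198 ± 34.6 of Mt2, and of 1278 ± 686 in Nrf2 eyes, close to that of Mt1. In control eyes every library had more Mt1 (927 to 1486) than any had Mt3 (140 to 390) or Mt2 (157 to 241), whose ranges overlapped. In Nrf2 eyes the ranges of Mt1 (1070 to 1918) and Mt3 (307 to 2237) overlapped and Mt2 (154 to 279) lay below both. With the summed exon length of each gene in place of the transcript, the control order of Mt2 and Mt3 turned, at levels of 172 and 120. The order of the Nrf2 means of Mt1 and Mt3 turned as well, at levels of 630 and 642.

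The remaining members lie elsewhere, Slc30a1 at chr1:191906767-191913247 and Slc30a10 at chr1:185454848-185468762 on the plus strand, Slc39a10 at chr1:46807544-46892852 on the minus strand, Mtf1 at chr4:124802104-124849800 on the plus strand and Slc39a14 at chr14:70303469-70351425 on the minus strand (GRCm38). They had much lower levels per length. In control eyes the mean was 15.4 for Slc39a14, 5.94 for Slc39a10, 3.59 for Slc30a1, 3.35 for Mtf1 and 0.0681 for Slc30a10. In control eyes the ranges of Slc39a10, Slc30a1 and Mtf1 overlapped. In Nrf2 eyes Slc30a1 (2.85 to 6.40) overlapped both others, while Slc39a10 (4.38 to 9.39) lay above Mtf1 (2.13 to 4.24). Slc39a14 lay above and Slc30a10 below these 3 genes in every library. The control mean of Slc39a14 was 3.06 with summed exon length, and its annotated transcripts run from 364 to 5117 bases.

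The make-up of the metallothionein pool differed between the groups. Mt3 made up 14.9% ± 3.40 (SD, n = 7) of the summed Mt1, Mt2 and Mt3 level per length in control eyes and 41.1% ± 11.0 (SD, n = 7) in Nrf2 eyes. The control shares ran from 11.5% to 21.8%, the latter in control 3. The Nrf2 share was 19.5% in Nrf2 4 and 37.9% to 53.1% in the other 6, so only Nrf2 4 fell within the control range. The share of Mt1 was 72.4% in control and 51.4% in Nrf2 eyes, and that of Mt2 was 12.7% and 7.47%.

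Ratios taken within a library do not depend on how libraries are scaled to each other. The log2 ratio of Mt3 to Mt1 was higher in the Nrf2 eye by 1.94 ± 0.77 (SD, n = 7 mice), in 7 of 7 mice, and that of Mt3 to Mt2 by 2.24 ± 0.94, in 7 of 7 mice (exact two-sided sign-flip permutation p = 0.0156 each, 0.0312 adjusted over the 4 measures tested). Mt2 to Mt1 was lower by a mean log2 difference of -0.30 ± 0.25, with 1 of 7 mice higher (exact permutation p = 0.0312, adjusted 0.0417). The summed level, which does depend on that scaling, was higher by 0.83 ± 0.68 on the log2 scale, in 6 of 7 mice (exact permutation p = 0.0469, adjusted 0.0469). Without mice 3 and 4 the 4 differences were 2.33, 2.71, -0.38 and 1.03, each at an exact permutation p of 0.0625, the smallest that 5 pairs allow. The 4 measures were picked once the levels of the genes were known. A ratio shows unequal change between genes and not which of them stayed the same.

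**Figure D4:**
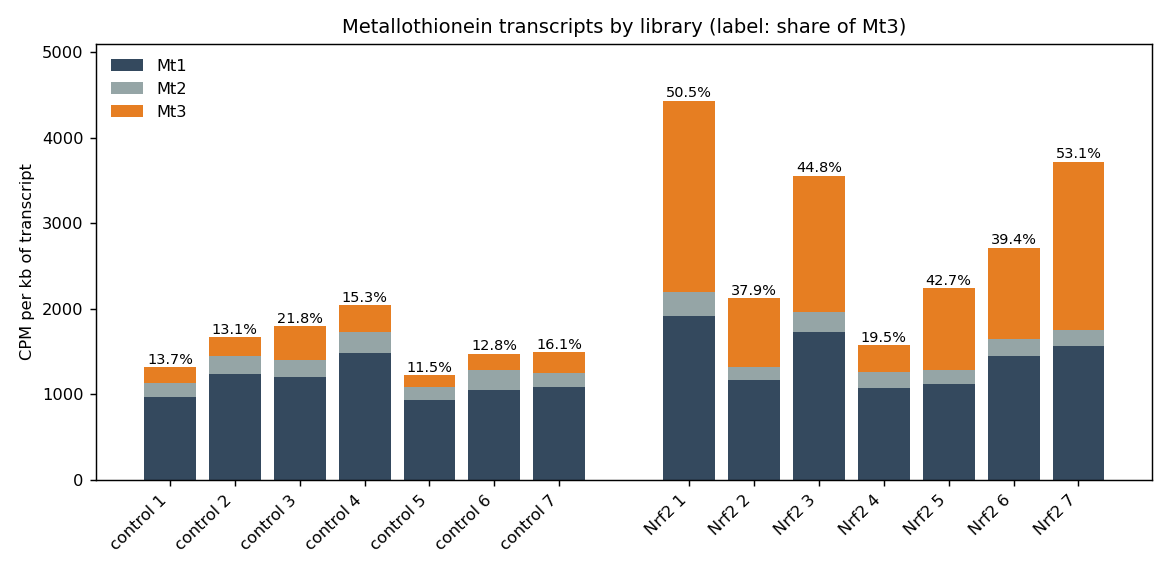
Stacked level of Mt1, Mt2 and Mt3 in each library, in CPM per kb of transcript, with the share of Mt3 printed above each bar. The summed level was 1573 ± 283 in control and 2909 ± 1025 in Nrf2 libraries (SD, n = 7), and the share of Mt3 was lowest among Nrf2 libraries in Nrf2 4.

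Slc30a1 (ZnT1), the exporter at the plasma membrane and a known target of Mtf1, lay between 12.5 and 25.7 CPM in control libraries (median 17.9) and between 14.9 and 33.5 CPM in Nrf2 libraries (median 22.2). The Nrf2 eye was higher in mice 1, 3, 5, 6 and 7 and lower in mice 2 and 4 on the normalized scale. The log2 fold change was 0.45 (SE 0.20, 95% interval -0.01 to 0.92, edgeR adjusted p = 0.285). Without mice 3 and 4 it was 0.63 (adjusted p = 0.117). Its call depended on the model and on mouse 4: it passed the threshold in limma voom with library weights (0.61, adjusted p = 0.0183) and in edgeR without mouse 4 (0.63, adjusted p = 0.0333).

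Mtf1 had the steadiest control level of the members, 25.5 ± 2.84 CPM (SD, n = 7), and 24.2 ± 5.35 CPM in Nrf2 eyes. Values ran from 21.1 to 29.6 CPM in control and from 16.2 to 32.3 CPM in Nrf2 libraries, and both ends of the Nrf2 range were in mice 3 and 4. The log2 fold change of 0.03 (SE 0.15, edgeR adjusted p = 0.933) had a 95% interval of -0.30 to 0.37. Mtf1 shares 7.77% of its 31-base words with 1110065P20Rik, so its counts rest in part on how reads were divided between the pair.

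Slc39a14 (ZIP14), an importer of zinc, manganese and non-transferrin-bound iron, lay between 23.3 and 39.9 CPM in control libraries (median 31.8). In Nrf2 libraries it lay between 27.6 and 41.4 CPM, apart from 61.8 CPM in Nrf2 2 (median 32.6). Its log2 fold change was 0.30 (SE 0.12, 95% interval 0.02 to 0.57), with an unadjusted p of 0.0375 and an adjusted p of 0.243 by edgeR. Without mouse 2 it was 0.23 (adjusted p = 0.313).

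Slc39a10 (ZIP10), an importer at the plasma membrane, lay between 15.6 and 53.5 CPM in control and between 24.1 and 51.6 CPM in Nrf2 libraries, with means of 32.7 ± 12.4 and 32.1 ± 9.81 CPM (SD, n = 7). Paired log2 differences ran from -0.95 in mouse 5 to 1.20 in mouse 6, and the fitted value was 0.15 (SE 0.26, 95% interval -0.46 to 0.75, edgeR adjusted p = 0.815).

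Slc30a10, an exporter chiefly of manganese, was at the edge of detection. Its estimated counts in control libraries 1 to 7 were 44, 13, 3, 27, 0, 5 and 0, and in Nrf2 libraries 1 to 7 they were 0, 40, 0, 1, 0, 0 and 19. The 6 libraries at 0 allow up to 0.0687 to 0.131 CPM each, for counting error only. The highest level, 2.42 CPM, was in Nrf2 2, the library with the largest pseudogene share. Group means were 0.397 ± 0.455 CPM in control and 0.405 ± 0.898 CPM in Nrf2 eyes (SD, n = 7). Slc30a10 did not pass the filter on low counts of the edgeR fit. Under the settings that kept it, its log2 fold change was -2.51 with DESeq2 (adjusted p = 0.399), -1.92 in edgeR with no filter (adjusted p = 0.756) and -1.78 with a mean of at least 10 counts (adjusted p = 0.689), none past the threshold, and these values rest on a few libraries with counts.

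**Figure D5:**
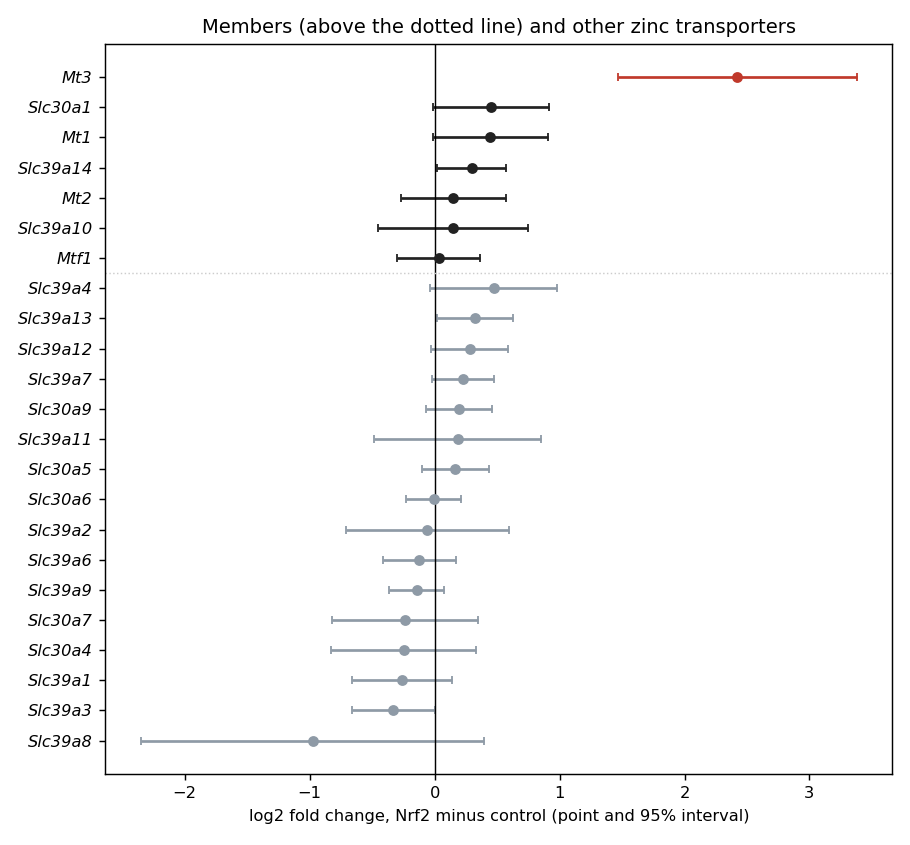
Log2 fold change, Nrf2 minus control, with 95% intervals from edgeR for the 7 tested members (above the dotted line) and 16 other zinc genes (below it). Red marks an adjusted p under 0.05. Only Mt3 is red, at 2.42.

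Of the other 21 genes of the zinc families (8 ZnT, 12 ZIP and Mt4), 16 were tested. None of the 16 passed the threshold, in either direction, in edgeR, against 3.43% of all tested genes. 1 of them, Slc39a13 (ZIP13), had an unadjusted p under 0.05, with a log2 fold change of 0.32 (adjusted p = 0.253). Their median log2 fold change was -0.03, against -0.04 for all genes, and the values ran from -0.98 to 0.47. 2 of them passed in limma voom (Slc39a13, 0.37, and Slc39a7, 0.30), and 2 in edgeR without mouse 4 (Slc39a13, 0.44, and Slc39a8, -1.44). DESeq2 called none. Slc39a2 and the untested Slc30a2, Slc30a3, Slc30a8 and Slc39a5 were low, at group means of 0.00625 to 1.41 CPM.

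The 3 ZnT genes with the largest fitted differences were Slc30a4 at -0.25, Slc30a7 at -0.24 and Slc30a9 at 0.20. Among ZIP genes these were Slc39a8 at -0.98, Slc39a4 at 0.47 and Slc39a3 at -0.33, again none past the threshold. Slc39a8, an importer of zinc and manganese, had the widest interval of all (-2.35 to 0.40), with means of 33.5 ± 22.4 CPM in control and 18.4 ± 16.3 CPM in Nrf2 eyes (SD, n = 7).

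Metallothioneins also bind copper and respond to glucocorticoids and to acute-phase signals, so genes of these groups were counted beside them. Over all 16289 tested genes, 3.43% passed the threshold. Of 12 copper genes, 2 rose, the copper pump Atp7a (log2 fold change 0.70, edgeR adjusted p = 0.0296) and the metalloreductase Steap2 (1.08, adjusted p = 0.0251), and none fell. Of 10 tested glucocorticoid-responsive genes, Cdkn1a (1.76), a cell cycle inhibitor that also has other inducers, rose and none fell, while 8 of the 10 fitted values were below 0 (median -0.23). Of 11 tested acute-phase genes, Serpina3n (1.10) rose and Saa3 (-0.88) fell. None of 5 manganese transport genes passed the threshold. For comparison, all 8 listed targets of Nrf2 passed it upwards, with a median of 3.26, among them Gclc (4.16), Gclm (2.99), Nqo1 (2.05) and Hmox1 (4.30).

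Over the 14 libraries, the log2 CPM of Mt3 was most like that of Gpx4 (Pearson r = 0.993), Nqo1 (0.989) and Cat (0.989) among 12024 genes with a mean of at least 5 CPM. For Mt1 these genes were H2afj, Cox17 and D8Ertd738e (0.952 each), for Mt2 Trappc10 (0.913), Zrsr2 and Commd1, and for Slc30a1 Slc13a3 (0.935), Selenok and Uros. For Mtf1 they were Prmt7 (0.875), Lsp1 and Mphosph10, for Slc39a10 Kctd4 (0.894), Fstl4 and Dact1, and for Slc39a14 Acss3 (0.916), Caprin2 and Cldn34c1. Among members, r was 0.870 for Mt1 with Mt3, 0.814 for Mt1 with Mt2, 0.497 for Mt2 with Mt3 and 0.775 for Mt3 with Slc30a1. These values are descriptions over libraries that share the treatment, the animals and the depth of each library.

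Because Mt3 is known from neurons and glia, markers of retinal cells that might remain on the eyecup are given beside it. None of the 10 Müller glia and astrocyte markers passed the threshold, which 3.43% of all tested genes did. Their summed level was 9256 to 20220 CPM in control and 11850 to 15040 CPM in Nrf2 libraries, higher in the Nrf2 eye in 3 of 7 mice, and Gfap and Aqp4 were at most 137 and 61.2 CPM in any library. Summed inner neuron markers were 1049 to 3005 CPM in control and 1431 to 2419 CPM in Nrf2 libraries, again with none of 10 past the threshold, higher in 2 of 7 mice. Summed rod markers were 20.3 to 504 CPM in control and 7.15 to 96.4 CPM in Nrf2 libraries, higher in the Nrf2 eye in 1 of 7 mice. Summed cone markers were 41.3 to 1054 and 17.5 to 103 CPM, higher in 0 of 7 mice. The fitted values of all 8 rod markers (median -1.57, none past the threshold) and all 8 cone markers (median -3.04, 2 past it) were below 0. Markers of ocular surface epithelium summed to 2164 to 63980 CPM in control and 2656 to 27180 CPM in Nrf2 libraries, with none of 8 past the threshold, higher in 1 of 7 mice. None of the listed markers of endothelium, muscle, immune cells, fibroblasts or blood passed it either. Their sums were higher in the Nrf2 eye in 0 of 7 mice for endothelium, 1 for muscle, 2 for blood, and 3 each for immune cells and fibroblasts. Of the 10 immune markers, 8 had fitted values above 0 and 2 below 0 (median 0.82). The 2 below were Csf1r (means of 183 CPM in control and 99.2 CPM in Nrf2 eyes) and Itgam (94.5 and 52.2 CPM). They had the highest means of that list and so weighed most in its sum. No marker of these lists was at 0 in every library, and their part in the levels of Mt3 was not tested.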

How the data were processed

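Gene counts of 14 RPE libraries from 7 rd1 mice were used. The authors amplified the purified RPE RNA with an Ultra Low v4 kit, which does not keep strand. They checked reads with FastQC, and quantified transcripts with Salmon 0.9.1 against mm10 and Ensembl 91, summed per gene. The deposited values are estimated counts, rounded to whole numbers and not normalized. That they are Salmon counts was inferred from the set of genes. The last row, human NFE2L2, is the vector's transcript: it counts in library totals and was not tested. Of 34452 mouse rows, 34401 matched GENCODE M21 (GRCm38), which gave positions and transcript lengths. No column of another sample was present (0). Libraries were sequenced in separate runs, but the labels do not assign them, so runs could not be compared. The study's methods give a smaller number of pairs at this age than the labels.

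The members and gene lists were chosen with earlier results of these data known. Genes named were the 8 members, other zinc genes past the threshold or the 3 per list with the largest change, context genes past the threshold, 4 Nrf2 targets, and the 3 genes most correlated with each member.

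The test was edgeR 4.0.16 (R 4.3.3) quasi-likelihood with mouse and treatment as terms, TMM scaling, filterByExpr with a minimum count of 10, and Benjamini-Hochberg adjustment over 16289 genes at 0.05, after tests on simulated counts. Pairing came from the animal number in the labels, so the replicates are separate mice. Over 16289 genes, deviations from group means correlated between the eyes of mice 1 to 7 at 0.004, 0.083, 0.030, -0.306, 0.304, -0.165 and 0.144. Paired differences of log2 CPM (prior count 2) took exact sign-flip permutation tests over 128 patterns. An estimated count of 0 was given a limit of 3 counts. Amplified reads carry no molecular identifiers, so limits cover counting error only. Shared sequence was counted as 31-base words over GENCODE transcripts, and motifs were searched in RefSeq promoter windows on both strands. Alternatives were no block, RLE and upper-quartile scaling, DESeq2 1.42.0, limma 3.58.1 voom with library weights, other filters, and leaving out mice. A library size of the tested mouse genes and the metallothionein ratios were added after seeing the data. Figures were drawn with matplotlib.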

Additional observations from a re-analysis of the deposited data

Results flagged for a closer look

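The levels of the 8 members were examined within each group, 16 groups of 7 libraries in all, and chance sets apart about 1 in 20 such groups. Slc30a10 at 2.42 CPM in Nrf2 2 stood far above the next Nrf2 library, at 0.376 CPM. Slc39a14 at 61.8 CPM in Nrf2 2 stood far above the next, at 41.4 CPM. Both values are from the library with the lowest total count and the largest share of counts on pseudogenes.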

How the results depend on the processing

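The number of genes past the threshold moved most with the settings, from 559 to 1100 with no replicate block for the paired eyes, 1900 with DESeq2, 2594 with voom, 347 with no filter and 111 to 2052 when 1 mouse was left out (most without mouse 4, fewest without mouse 7), while the other planned settings stayed within 1.5 times. It was 441 with the library size of the tested mouse genes, chosen after seeing the data. The cause was not tested. Of the members, 1 passed in edgeR, 3 in voom and 0 to 2 when 1 mouse was left out. Of the other zinc genes, 0 passed in edgeR, 2 in voom and 0 to 2 when 1 mouse was left out. Mt3 was higher under all 16 alternatives, at log2 fold changes of 2.16 to 2.87, and past the threshold in 11, with adjusted p from 2e-08 to 0.0874. The alternative without the block left the call of every member as it was. Mt1 passed only in voom (0.60, adjusted p = 0.0308, range of adjusted p 0.0308 to 0.555), and Slc30a1 in voom (0.61) and without mouse 4 (0.63). The fitted sign turned for Mtf1 in voom (-0.073) and without mouse 4 (-0.055), for Slc39a10 in voom (-0.18), without mouse 2 (-0.025) and without mouse 6 (-0.047), and for Mt2 without mouse 1 (-0.012). The mean paired difference turned for Mt2 without mouse 1 (-0.013), Mtf1 without mouse 4 (-0.058), and Slc39a10 without mouse 2 (-0.015) and mouse 6 (-0.025). Left out in turn, single mice gave fitted values of -0.012 to 0.26 for Mt2, -0.055 to 0.15 for Mtf1 and -0.047 to 0.33 for Slc39a10, and paired differences of -0.013 to 0.265, -0.058 to 0.146 and -0.025 to 0.334. Slc30a10 was left out by the filter on low counts and did not pass in the 3 settings that kept it.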
